A study of Bos taurus with 2 samples.

Results

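Among the 21867 genes of the deposited feature list, 10 of the helix-loop-helix family were followed through cultured bovine satellite cells. They were chosen by name as the inhibitor of DNA binding genes ID1, ID2, ID3 and ID4, the E-protein genes TCF3, TCF4 and TCF12, and the repressor genes MSC, TWIST1 and TWIST2, and all 10 had UMIs. They came from longissimus muscle of 1 Holstein bull calf aged 2 weeks and were kept for 1 week in growth medium with serum before single-cell RNA sequencing. No treatment was compared, and the groups are 15 clusters of cells that the authors formed from the counts. The 2 libraries, called replicates 1 and 2, were prepared from the same cells, so the SD between them holds the error of preparing a library and no difference between animals. The culture had been neither sorted nor taken through a differentiation medium, and 1 calf limits it as a model of bovine muscle.

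Helix-loop-helix proteins bind DNA as dimers, and E proteins are their common partners. In the muscle lineage, MYOD1, MYF5, MYF6 and MYOG pair with an E protein, bind the E-box motif CANNTG and switch on genes of cell cycle exit and contraction. ID proteins carry the dimer interface without the DNA-binding region, so they hold E proteins in pairs that cannot bind DNA, and they are classical targets of bone morphogenetic protein signalling. Musculin (the product of MSC) and the TWIST proteins bind E proteins too and act as repressors of muscle genes, with TWIST1 and TWIST2 best known from mesenchymal and connective tissue cells.

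The deposited counts held 145631299 UMIs in the 9939 cells of replicate 1 and 137818568 UMIs in the 9157 cells of replicate 2, where a UMI is 1 captured RNA molecule. The study named cluster 8 and cluster 5 after PAX3, cluster 4 after PAX7, cluster 1 after MYF5, cluster 2 after MYOD1, clusters 3 and 12 after MYOG and clusters 7 and 9 after PDGFRA, and ordered the myogenic clusters from 8 through 1 and 3 to 12, and from 8 through 5 and 4 to 2. PAX3 and PAX7 had only 316 and 176 UMIs in all, whereas PDGFRA reached 1.58 UMIs per 10000 UMIs in cluster 9 and 1.48 in cluster 7 against 0.0919 in cluster 3. Of the markers of other cells, SOX10, FOXD3 and C1QA had 0 UMIs, PTPRC had 1, and the summed level was 0 to 0.0331 for the 5 endothelial markers and 0 to 0.154 for the 4 immune ones. The smooth muscle list (3.53 to 9.61) was mostly ACTA2 and the pericyte list (0.123 to 3.99) mostly NOTCH3 and CSPG4, with 8 UMIs of RGS5. Clusters 7, 13, 14 and 15 had medians of 647 to 2513.5 UMIs per cell and cluster 10 one of 5398.5, against 12929 to 23011 in the 10 deeper clusters, and 27 barcodes occurred in both libraries. Levels are UMIs of a gene per 10000 UMIs of all genes, taken from the sum over a cluster's cells in each library and given for replicate 1 and then replicate 2. Each molecule is counted once from its 3' end, so the level is not scaled by transcript length, and capture can differ between genes. The clusters were formed from the same counts, so an adjusted p between clusters speaks of a difference larger than the error of preparing libraries and is not independent of the grouping.

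Over all cells, the level of ID1 (ENSBTAG00000016169) was 10.45 ± 0.0303 (SD of the 2 libraries), and 91.9% of cells held at least 1 of its UMIs. The level of ID2 (ENSBTAG00000021187) was 1.28 ± 0.0308 and that of ID3 (ENSBTAG00000030425) was 2.63 ± 0.0318. ID4 (ENSBTAG00000052562) was sparse, with 2564 UMIs in all and a level of 0.0905 ± 0.000233. The E-protein genes had levels of 0.360 ± 0.00729 for TCF3 (ENSBTAG00000008695), 0.704 ± 0.00490 for TCF4 (ENSBTAG00000016462) and 1.32 ± 0.0369 for TCF12 (ENSBTAG00000002586). TCF4 is the E-protein gene here, and TCF7L2, whose product is sometimes also called TCF4, has its own row in the feature list. The repressor genes were low in the culture as a whole, at 0.216 ± 0.0130 for MSC (ENSBTAG00000005404), 0.109 ± 0.00320 for TWIST1 (ENSBTAG00000046922) and 0.0105 ± 0.000537 for TWIST2 (ENSBTAG00000021444), which had 299 UMIs.

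**Figure D1:**
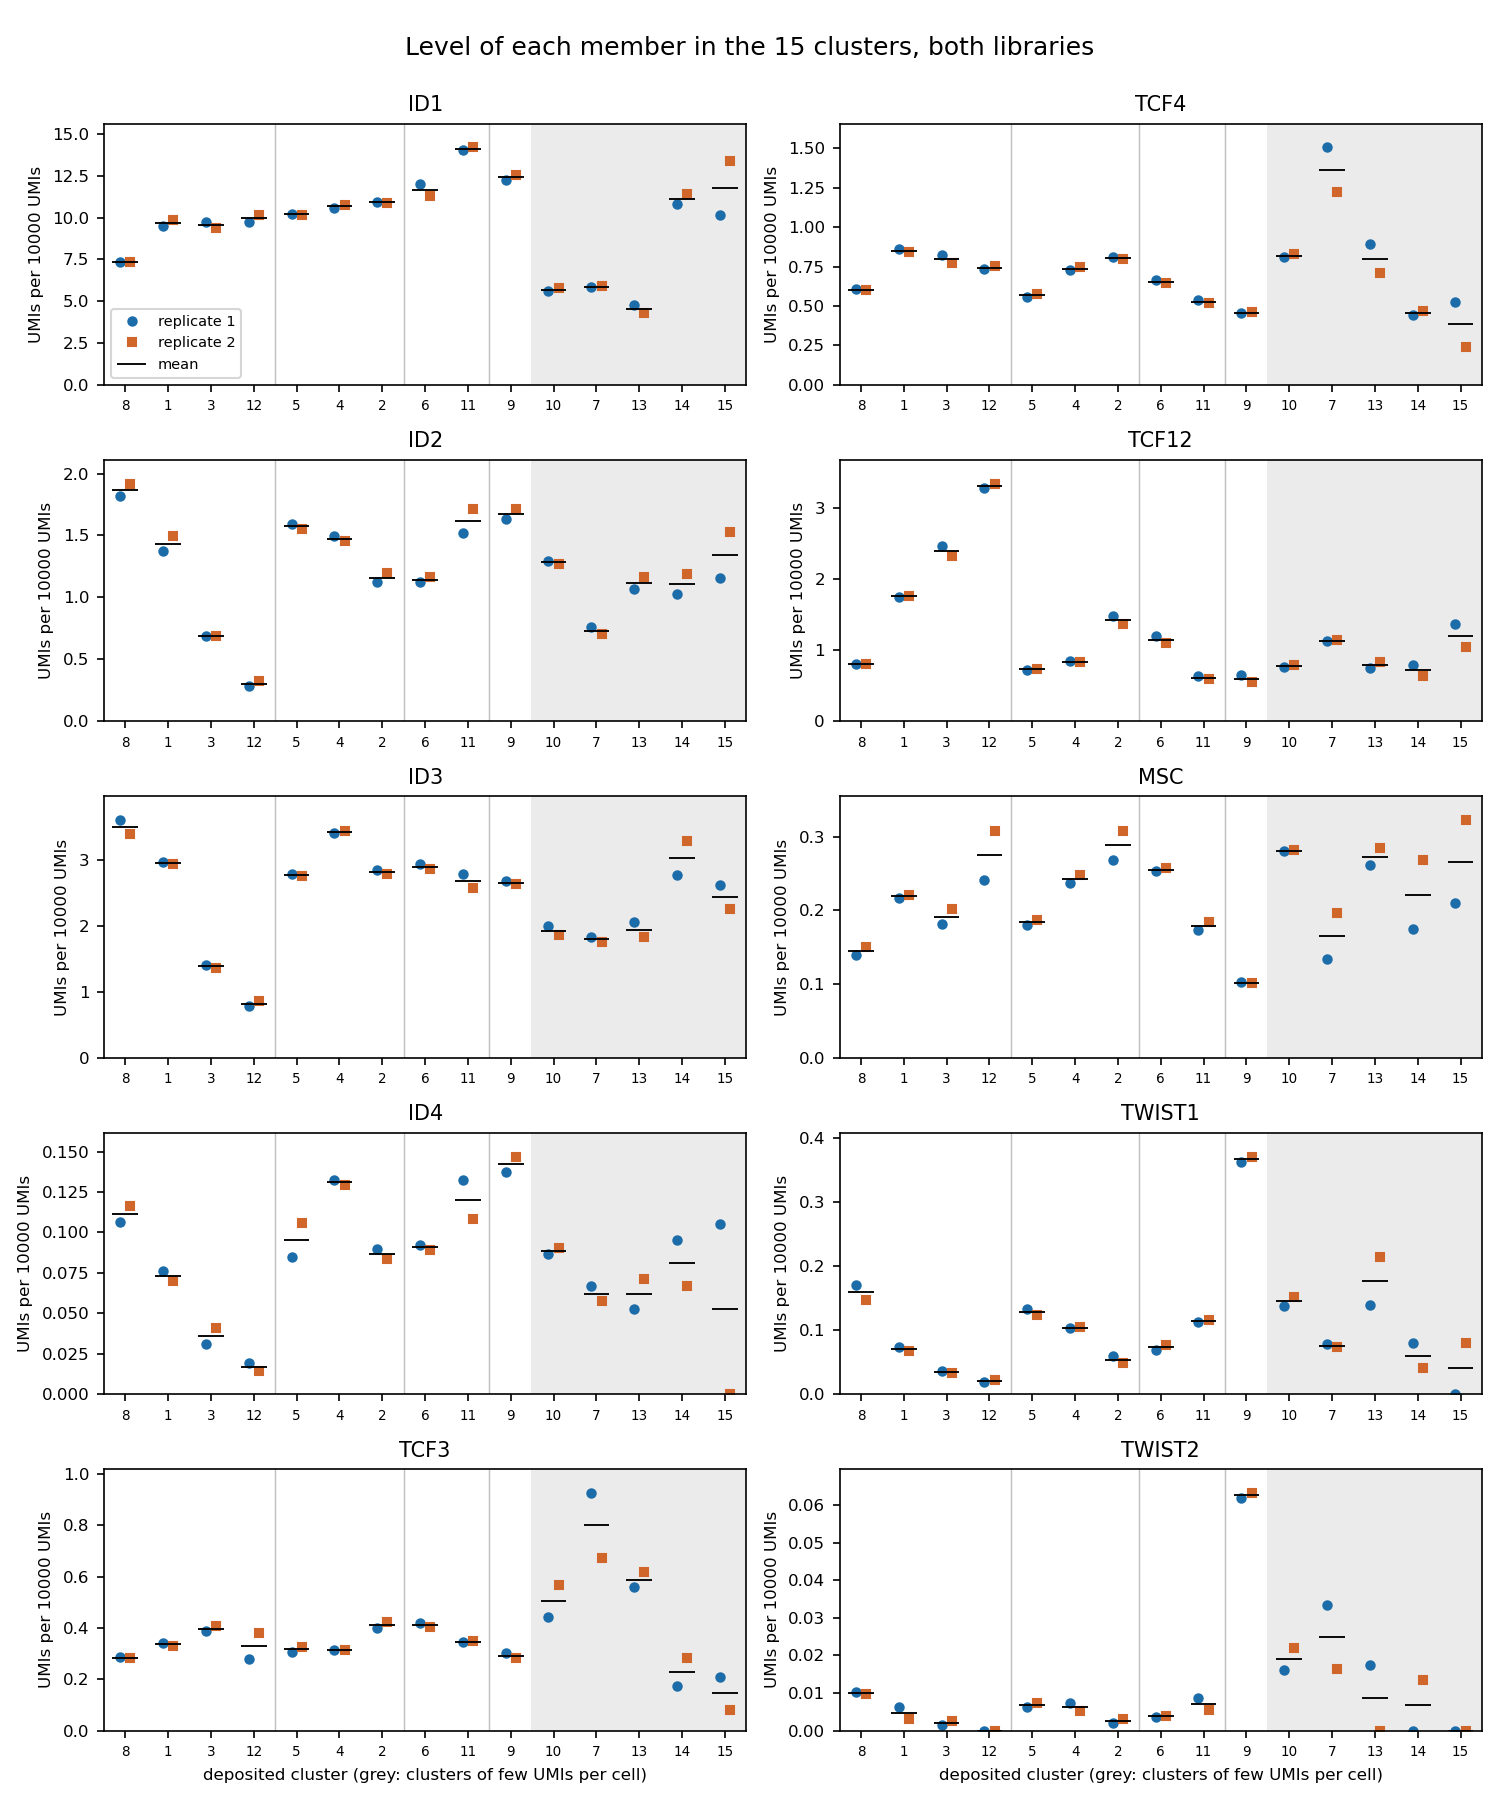
Level of each of the 10 genes in UMIs per 10000 UMIs (vertical axes, starting at 0) in the 15 deposited clusters (horizontal axes), with circles for replicate 1, squares for replicate 2 and a line at their mean. Clusters run along the first route (8, 1, 3, 12), the second (5, 4, 2), clusters 6 and 11, cluster 9 and, on grey, the 5 clusters of few UMIs per cell. ID2 falls from 1.87 in cluster 8 to 0.301 in cluster 12 while TCF12 climbs from 0.799 to 3.31, and TWIST1 and TWIST2 peak in cluster 9.

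Differences between clusters were tested in 7 comparisons, on the UMI sums of 2 libraries against 2 with edgeR's quasi-likelihood test and Benjamini-Hochberg adjustment over all genes tested. Neighbouring comparisons share a cluster (cluster 8 stands in 2 of them, for example), so they are not independent of each other. In cluster 1 against cluster 8, 5 of the 10 genes were higher and 4 lower at an adjusted p under 0.05, where 34.1% of all genes tested were called (17.2% higher and 16.9% lower). In cluster 3 against cluster 1, 2 were higher and 4 lower of the 9 tested, against 40.2% of all genes (21.1% and 19.1%). In cluster 12 against cluster 3, 3 were higher and 3 lower of 9, against 33.8% of all genes (18.2% and 15.6%). On the other route, 2 were higher and 2 lower of 10 in cluster 5 against cluster 8, where 28.5% of all genes were called (16.3% and 12.2%). In cluster 4 against cluster 5, 3 were higher and 0 lower of 10, against 16.4% (9.16% and 7.28%), and in cluster 2 against cluster 4, 2 were higher and 4 lower of 9, against 30.2% (14.5% and 15.7%). In cluster 9 against the 7 myogenic clusters together, 5 were higher and 4 lower of 10, where 56.5% of all genes were called (28.9% and 27.6%). TWIST2 had too few UMIs to be tested in 3 of the comparisons. With so many genes called in each step, the number of members called says little by itself, and the sizes and directions below carry the description. The split between higher and lower genes in cluster 12 against cluster 3 was 1963 to 1687, and it became 1552 to 2527 when libraries were scaled by their totals alone, which put the median of all genes at -0.12 on the log2 scale.

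**Figure D2:**
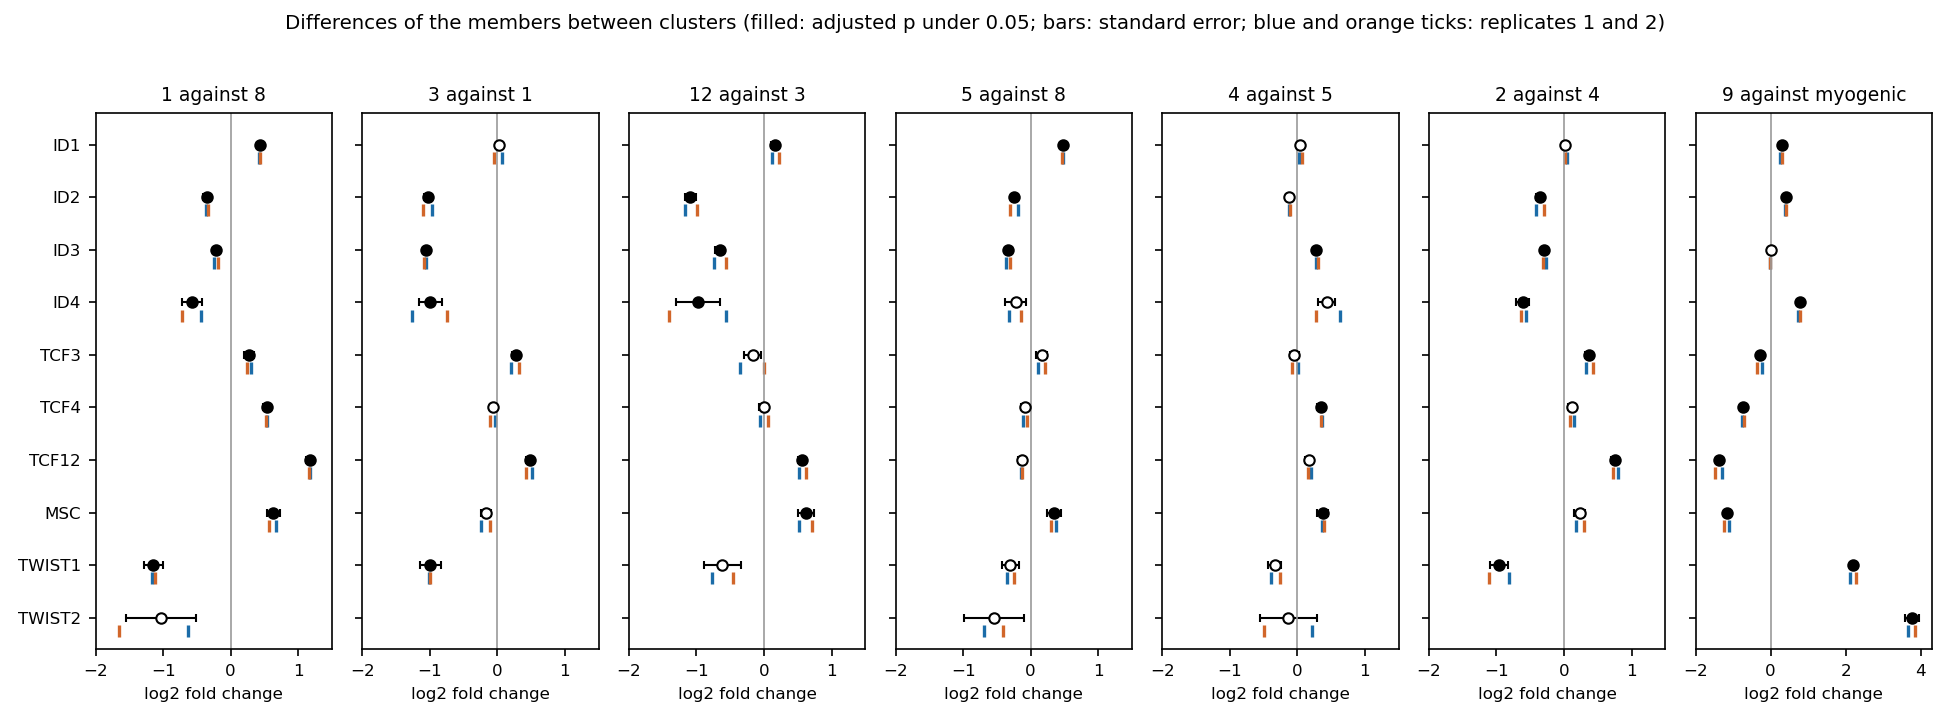
Log2 fold change (horizontal axes) of the 10 genes in the 7 comparisons, first cluster over second, with standard errors as bars; filled points had an adjusted p under 0.05 and the short ticks show replicate 1 and replicate 2 on their own. ID2, ID3 and ID4 lie to the left of 0 in the 3 steps of the first route, TCF12 to the right, and the sides are reversed for TCF12 in cluster 9, where TWIST2 reaches 3.77.

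The ID genes separated into ID1 on one side and ID2, ID3 and ID4 on the other along the route from cluster 8 to the myocyte cluster 12. The level of ID2, whose product restrains cell cycle exit, was 1.82 and 1.92 in cluster 8, 1.38 and 1.49 in cluster 1, 0.687 and 0.686 in cluster 3, and 0.281 and 0.321 in cluster 12. The 4 clusters did not overlap, and each step was called, with log2 fold changes of -0.35 ± 0.0567 (SE, adjusted p = 0.00217), -1.03 ± 0.0559 (adjusted p = 2.77e-05) and -1.09 ± 0.0791 (adjusted p = 3.86e-05). ID3, an inhibitor with the same partners, stood at 3.61 and 3.40 in cluster 8, 2.97 and 2.94 in cluster 1, 1.41 and 1.37 in cluster 3, and 0.781 and 0.866 in cluster 12. Its steps were -0.21 ± 0.0504 (adjusted p = 0.0128), -1.05 ± 0.0462 (adjusted p = 1.44e-05) and -0.66 ± 0.0634 (adjusted p = 0.000178), so the larger drops again came at the entry into the MYOG clusters and beyond.

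ID4 followed the same order at a much lower level, with 0.107 and 0.117 in cluster 8, 0.0763 and 0.0698 in cluster 1, 0.0312 and 0.0408 in cluster 3, and 0.0195 and 0.0144 in cluster 12. Its 3 steps of -0.57 ± 0.142, -0.99 ± 0.173 and -0.98 ± 0.322 had adjusted p-values of 0.0154, 0.00375 and 0.0495. Its calls were the least secure of the family. DESeq2 gave adjusted p-values of 0.121 and 0.273 for the first and the last step, and the last step was -0.56 in replicate 1 and -1.40 in replicate 2.

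ID1 did not share this decline. Its level was 7.33 and 7.36 in cluster 8, 9.51 and 9.84 in cluster 1, 9.77 and 9.38 in cluster 3, and 9.76 and 10.18 in cluster 12. It was therefore lowest in cluster 8, where ID2 and ID3 were highest, with a first step of 0.43 ± 0.0424 (adjusted p = 0.000148). Clusters 1 and 3 overlapped in their library values, with a log2 difference of 0.02 ± 0.0471 (adjusted p = 0.754). In cluster 12 it was 0.16 ± 0.0483 above cluster 3 (adjusted p = 0.0399), a call that was lost with libraries scaled by their totals alone (0.06, above the median of all genes under that scaling, adjusted p = 0.317) and with no filter on low counts (adjusted p = 0.0783). The G2/M phase list, a set of mitotic genes, had summed levels of 1.89, 3.02, 3.38 and 2.19 in clusters 8, 1, 3 and 12, against 45.7 and 45.9 in clusters 4 and 2. The pericyte list, led by NOTCH3 and CSPG4, went from 0.853 in cluster 8 to 0.580, 0.142 and 0.123. The fibro-adipogenic list (PDGFRA, PPARG, ZNF423, DCN and LUM), mostly DCN and LUM, went from 21.0 to 9.47, 4.89 and 3.36. Both sums ran in the order of ID2 and ID3, though ZNF423 was highest in cluster 12 (0.0992, against 0.0684 in cluster 8). The part of these genes in the ID result was not tested.

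When the UMIs of each cell were divided at random into 2 equal parts, the cells clustered on 1 part and the genes measured on the other (the divided counts), ID2 and ID3 were still lower in each of these 3 steps. ID2 then differed by -0.51, -0.90 and -0.64 (adjusted p of 0.000666, 2.32e-05 and 0.000660) and ID3 by -0.47, -0.91 and -0.57 (adjusted p of 0.000129, 3.26e-06 and 0.000173). In this setting 53.1% of the cells of cluster 3 and 64.8% of those of cluster 1 kept their cluster. Clusters 11 and 15 were not recovered, and their cells were placed in other clusters. Sizes changed too, from 2034 to 1187 cells for cluster 3 and from 1768 to 2291 for cluster 4. The ID4 steps were -1.39, -0.28 and -1.06, of which the last 2 lost their call (adjusted p of 0.501 and 0.0516).

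On the second route, from cluster 8 through clusters 5 and 4 to cluster 2, the changes of the ID genes were smaller and did not run one way. ID1 was higher in cluster 5 (10.22 and 10.18) than in cluster 8, by 0.48 ± 0.0370 (adjusted p = 7.97e-05), and the following 2 steps were not called (0.04 ± 0.0370 and 0.02 ± 0.0328, adjusted p of 0.535 and 0.709), though the first of these was 0.22 and called in the divided counts (adjusted p = 0.00844). ID2 was 1.596 and 1.549 in cluster 5, 1.49 and 1.46 in cluster 4, and 1.13 and 1.19 in cluster 2. It was lower in cluster 5 than in cluster 8 by -0.24 ± 0.0510 (adjusted p = 0.00961, 0.101 in the divided counts) and in cluster 2 than in cluster 4 by -0.36 ± 0.0484 (adjusted p = 0.00219), and the step between them, -0.12 ± 0.0482, was called with the library as a block and not without it (adjusted p of 0.0127 and 0.142). ID3 fell in cluster 5 (2.79 and 2.76) by -0.33 ± 0.0491, was higher in cluster 4 (3.42 and 3.45) by 0.28 ± 0.0408 and lower in cluster 2 (2.85 and 2.79) by -0.30 ± 0.0362, with adjusted p-values of 0.00189, 0.00490 and 0.00150. ID4 was lower in cluster 2 than in cluster 4 by -0.61 ± 0.0961 (adjusted p = 0.00427), and its difference of 0.44 ± 0.127 between clusters 4 and 5 had an adjusted p of 0.0581, against 0.00458 with the library as a block, 0.0467 without doublets and 0.0257 in the divided counts.

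Across the remaining clusters, ID1 was highest in cluster 11 (14.06 and 14.21), followed by cluster 9 (12.23 and 12.58), and lowest in the shallow clusters 7, 10 and 13 (4.27 to 5.90). Among the 10 deeper clusters, ID1 spanned 1.93-fold from cluster 11 to cluster 8, the least of the 4 ID genes, while ID2 spanned 6.20-fold, ID3 4.26-fold and ID4 8.39-fold, each with its lowest level in cluster 12. Ordered over the 15 clusters, neighbours overlapped in their library values in 7 of 14 cases for ID1, 8 for ID2, 6 for ID3 and 10 for ID4, so much of the order in the middle cannot be resolved. Shallow clusters add to this, since ID1 was 10.18 and 13.38 in cluster 15. In cluster 9, the levels of ID2 (1.63 and 1.71) and ID4 (0.137 and 0.147) were above those of the 7 myogenic clusters together (1.22 and 1.26, and 0.0806 and 0.0832). The log2 differences were 0.41 ± 0.0404 for ID2 (adjusted p = 0.000600), 0.77 ± 0.0753 for ID4 (adjusted p = 0.000592) and 0.29 ± 0.0330 for ID1 (adjusted p = 0.00100), while that of ID3 was -0.00 ± 0.0378 (adjusted p = 0.9695). The pooled ID2 level includes the low clusters 3 and 12 (means of 0.686 and 0.301). Mean ID2 was higher in cluster 8 (1.87) than in cluster 9 (1.67), and lower in the other myogenic clusters. Mean ID4 was highest in cluster 9 (0.142), followed by cluster 4 (0.131). Cluster 9 was not tested against single myogenic clusters.

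Among the E-protein genes, TCF12 carried most of the difference along the first route. TCF12, which encodes the E protein HEB, was at 0.7986 and 0.7999 in cluster 8, 1.75 and 1.77 in cluster 1, 2.47 and 2.33 in cluster 3, and 3.28 and 3.34 in cluster 12. Each step was called, with log2 fold changes of 1.17 ± 0.0519 (adjusted p = 2.52e-06), 0.48 ± 0.0516 (adjusted p = 0.000458) and 0.56 ± 0.0532 (adjusted p = 0.000159). In the divided counts the middle step was 0.19 (adjusted p = 0.0286) and the others were 1.16 and 0.61. On the second route TCF12 was 0.726 and 0.732 in cluster 5, 0.846 and 0.827 in cluster 4, and 1.47 and 1.37 in cluster 2, and it was higher in cluster 2 than in cluster 4 by 0.75 ± 0.0523 (adjusted p = 0.000159). Its smaller differences of -0.13 ± 0.0566 in cluster 5 against cluster 8 and 0.17 ± 0.0518 in cluster 4 against cluster 5 were called with the library as a block (adjusted p of 0.0360 and 0.00287) and not without it (0.132 and 0.0642), and the latter turned to -0.18 in the divided counts.

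TCF12 was lowest in cluster 9 (0.651 and 0.549) and cluster 11 (0.634 and 0.596), which overlapped. Against the myogenic clusters together (1.554 and 1.503), cluster 9 was lower by -1.37 ± 0.0876 on the log2 scale (adjusted p = 0.000135). Over the 10 deeper clusters TCF12 spanned 5.52-fold.

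TCF4 and TCF3 varied far less. TCF4 was at 0.608 and 0.599 in cluster 8 and 0.859 and 0.844 in cluster 1, a step of 0.53 ± 0.0592 (adjusted p = 0.000299). The levels of 0.822 and 0.772 in cluster 3 and 0.733 and 0.753 in cluster 12 followed with steps that were not called, -0.06 ± 0.0577 and -0.00 ± 0.0657 (adjusted p of 0.472 and 0.965), of which the former was -0.24 in the divided counts (adjusted p = 0.0413). It was higher in cluster 4 than in cluster 5 by 0.35 ± 0.0533 (adjusted p = 0.00623) and lower in cluster 9 (0.454 and 0.462) than in the myogenic clusters (0.753 and 0.744) by -0.73 ± 0.0424 (adjusted p = 9.95e-05). Its difference of 0.11 ± 0.0448 between clusters 2 and 4 was called with the library as a block and not without it (adjusted p of 0.0189 and 0.110).

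TCF3, the E-protein gene with 2 called steps on the first route, was at 0.287 and 0.282 in cluster 8, 0.343 and 0.330 in cluster 1, 0.388 and 0.406 in cluster 3, and 0.280 and 0.380 in cluster 12. The first steps were 0.28 ± 0.0759 and 0.28 ± 0.0606 (adjusted p of 0.0238 and 0.00998), and neither was called by DESeq2 (0.210 and 0.0924). It was higher in cluster 2 than in cluster 4 by 0.37 ± 0.0602 (adjusted p = 0.00463) and lower in cluster 9 than in the myogenic clusters by -0.29 ± 0.0590 (adjusted p = 0.00898). Both TCF3 and TCF4 had their highest level in the shallow cluster 7 (0.926 and 0.673, and 1.51 and 1.22), whose libraries differed by more than those of any deeper cluster, and TCF3 in that cluster was 0.578 once cells under 2000 UMIs were left out. Over the 10 deeper clusters TCF3 spanned 1.45-fold and TCF4 1.86-fold.

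The repressor genes fell into an MSC pattern and a TWIST pattern. MSC was 0.139 and 0.151 in cluster 8, 0.217 and 0.222 in cluster 1, 0.181 and 0.202 in cluster 3, and 0.241 and 0.308 in cluster 12, so this repressor of MYOD1 targets was not lowest in the myocyte cluster. It was higher in cluster 1 than in cluster 8 by 0.63 ± 0.0954 (adjusted p = 0.00149) and in cluster 12 than in cluster 3 by 0.62 ± 0.122 (adjusted p = 0.00601), of which the former was 0.22 and not called in the divided counts (adjusted p = 0.203). On the second route its differences of 0.35 ± 0.105 and 0.37 ± 0.0777 in clusters 5 and 4 were called (adjusted p of 0.0421 and 0.0196), but not by DESeq2 (0.3504 and 0.152) or in the divided counts (0.6703 and 0.139). The step of 0.23 ± 0.0839 in cluster 2 against cluster 4 had an adjusted p of 0.0807, against 0.00396 with the library as a block and 0.0398 in the divided counts. MSC was lowest of all in cluster 9 (0.103 and 0.101), by -1.16 ± 0.0794 against the myogenic clusters (adjusted p = 0.000167).

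Over the first route, TWIST1 ran in the reverse order of TCF12. Its level was 0.171 and 0.147 in cluster 8, 0.0739 and 0.0668 in cluster 1, 0.0359 and 0.0329 in cluster 3, and 0.0195 and 0.0224 in cluster 12. The first 2 steps were -1.14 ± 0.139 (adjusted p = 0.000488) and -0.99 ± 0.158 (adjusted p = 0.00255), and the last, -0.62 ± 0.271, was not called (adjusted p = 0.119). In the divided counts the second step was -0.52 and not called (adjusted p = 0.291). On the second route it was lower in cluster 2 (0.0589 and 0.0487) than in cluster 4 (0.103 and 0.104) by -0.96 ± 0.130 (adjusted p = 0.00235), and the steps of -0.30 ± 0.1249 and -0.34 ± 0.1025 before it were called with the library as a block (adjusted p of 0.0378 and 0.0165) and not without it (0.112 and 0.0655), the latter also in the divided counts (0.0409).

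Both TWIST genes were highest in the PDGFRA-enriched cluster 9. TWIST1 was at 0.362 and 0.371 there against 0.0816 and 0.0752 in the myogenic clusters, a log2 difference of 2.20 ± 0.0662 (adjusted p = 1.43e-05). One cell of replicate 2 held 57 of the 452 TWIST1 UMIs counted in that library in cluster 9, where the next highest cell had 13, and without it the level in replicate 2 was 0.325. TWIST2 was at 0.0620 and 0.0632 against 0.00473 and 0.00426, a difference of 3.77 ± 0.182 (adjusted p = 5.50e-05), and no UMI of it was counted in cluster 12. The fibro-adipogenic marker list, all 5 of whose genes were detected, summed to 14.2 in cluster 9 and to more, 21.0, in cluster 8, where TWIST1 stood higher than in the other myogenic clusters. PDGFRA itself was 0.267 in cluster 8 and 1.58 in cluster 9. The part of these marker genes in the TWIST result was not tested. Cluster 7, the other PDGFRA-enriched cluster, had a TWIST1 level of 0.0781 and 0.0738 and a TWIST2 level of 0.0335 and 0.0164. These values rest on only 7 and 9 UMIs of TWIST1 and 3 and 2 UMIs of TWIST2, so TWIST2 could not be placed there.

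The summed UMIs of ID1 to ID4 over those of TCF3, TCF4 and TCF12 put these opposite movements on 1 scale. The ratio was 7.59 and 7.61 in cluster 8, 4.71 and 4.88 in cluster 1, 3.24 and 3.27 in cluster 3, and 2.53 and 2.55 in cluster 12. It thus went from 7.60 to 2.54 on average, and the libraries of these clusters did not overlap. The change was mostly one of E-protein transcripts, since their summed level went from 1.69 in cluster 8 to 4.38 in cluster 12 while that of the ID genes went from 12.8 to 11.1. Because ID1 supplied 57.3% of the ID UMIs in cluster 8 and 89.7% in cluster 12, the ratio without ID1 was steeper, at 3.25 ± 0.0246 in cluster 8, then 1.51 ± 0.0260 and 0.588 ± 0.0135 in clusters 1 and 3, and 0.260 ± 0.0117 in cluster 12. TCF12 supplied 47.4% of the E-protein UMIs in cluster 8 and 75.5% in cluster 12.

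Clusters 9 and 11 had the highest ratios of the deeper clusters, 11.9 and 13.2 in cluster 9 and 12.2 and 12.7 in cluster 11, which overlapped. On the second route the ratio was 9.07 ± 0.219 in cluster 5, 8.32 ± 0.0790 in cluster 4 and 5.69 ± 0.129 in cluster 2. Of the shallow clusters, cluster 7 was at 2.39 and 2.78 and overlapped cluster 12, and cluster 15 could not be placed, with 6.70 and 12.5 from 20 and 17 E-protein UMIs. These are ratios of transcripts counted from 3' ends, so they give the order of clusters and not a molar balance of proteins.

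**Figure D3:**
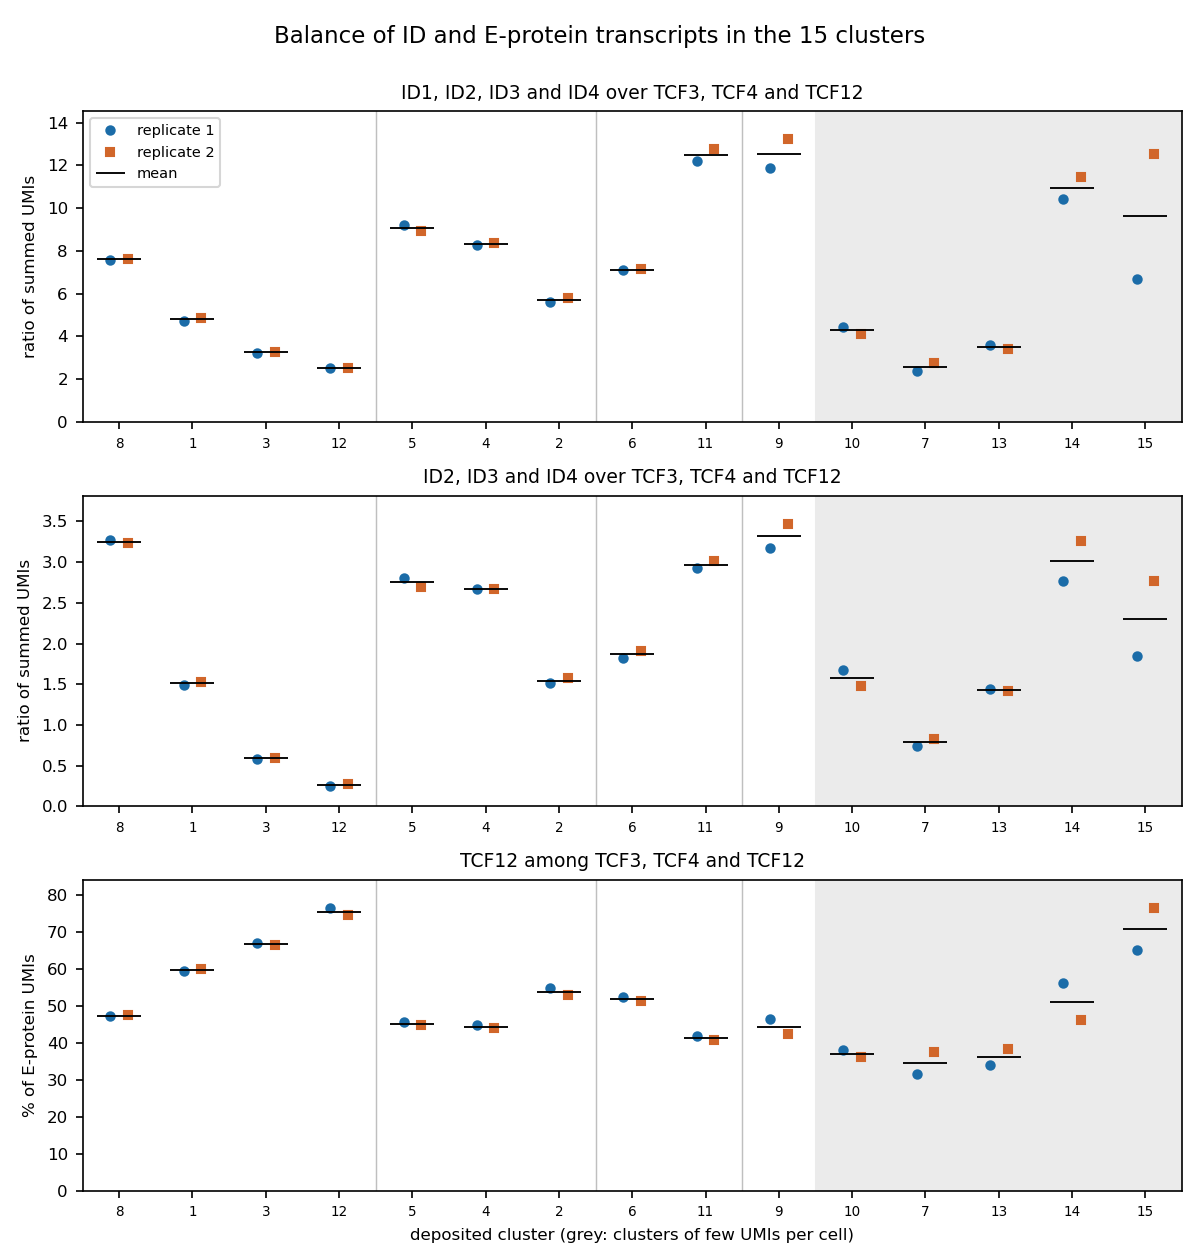
Ratio of summed UMIs of the 4 ID genes to the 3 E-protein genes (top), the same without ID1 (middle) and TCF12 as a percentage of the E-protein UMIs (bottom) in the 15 clusters, with circles for replicate 1, squares for replicate 2 and lines at the mean. The top ratio steps down from 7.60 in cluster 8 to 2.54 in cluster 12 and is highest in clusters 9 (12.5) and 11 (12.5), and the bottom share rises from 47.4% to 75.5% over the first route.

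To see whether the movement was tied to MYOG within cells, cells of the 7 myogenic clusters with at least 5000 UMIs were thinned to 5000 UMIs each and classed by their MYOG UMIs. MYOG, the regulator of terminal differentiation, is itself a gene by which the clusters differ, so these values are a description without a test. From cells with 0 MYOG UMIs (8817 cells) through 1 to 2 (1331), 3 to 5 (696) and 6 or more (1006), the mean ID2 level of the libraries went from 1.48 to 1.16, 0.767 and 0.408, and that of ID3 from 3.05 to 2.34, 1.56 and 1.09. TCF12 went the other way, from 1.22 to 1.92, 2.76 and 3.28. The libraries did not overlap between any of these classes for the 3 genes. ID1 was 9.98 ± 0.164 in the first class and 10.04 ± 0.286 in the last, with overlapping libraries, and TCF4 (0.744 and 0.768) and TCF3 (0.331 and 0.356) also ended close to where they began.

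Cluster 3 held 377 cells or more in each class, so the classes could also be set side by side within this cluster. There the level of ID2 was 0.829 and 0.747 in the 742 cells with 0 MYOG UMIs and 0.502 in both libraries in the 474 cells with 6 or more, a log2 ratio of -0.65 ± 0.108. For this and the following ratios by MYOG class, ± is the SD of the 2 libraries and not a standard error. ID3 was 1.47 and 1.59 against 1.202 and 1.270, a ratio of -0.31 ± 0.0248, which was -0.68 with thinning to 3000 UMIs. The same cut of 6 MYOG UMIs is stricter at that depth and left 228 cells in the class. TCF12 was 2.17 and 1.87 against 3.07 and 3.14, a ratio of 0.63 ± 0.173. Each had the direction of the whole myogenic set at a smaller size. ID1 was 9.37 and 8.99 against 10.44 and 9.89, a ratio of 0.15 ± 0.0132 that was 0.02 with thinning to 3000 UMIs. MYOD1 in the same cells differed by -0.07 ± 0.00900 and MYF5 by -1.32 ± 0.116. TWIST1 was sparse there and higher with 6 or more MYOG UMIs (0.059 against 0.032, log2 0.94 ± 0.423). In the myogenic clusters together TWIST1 was lower with 6 or more (-1.58 ± 0.354). Outside the myogenic clusters, 7.78% of thinned cells of cluster 9, whose doublet share was 14.4%, had a MYOG UMI (95% exact binomial interval 6.25% to 9.54%), against 63.5% in cluster 3 and 98.4% in cluster 12, and the source of the UMIs in cluster 9 was not tested.

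**Figure D4:**
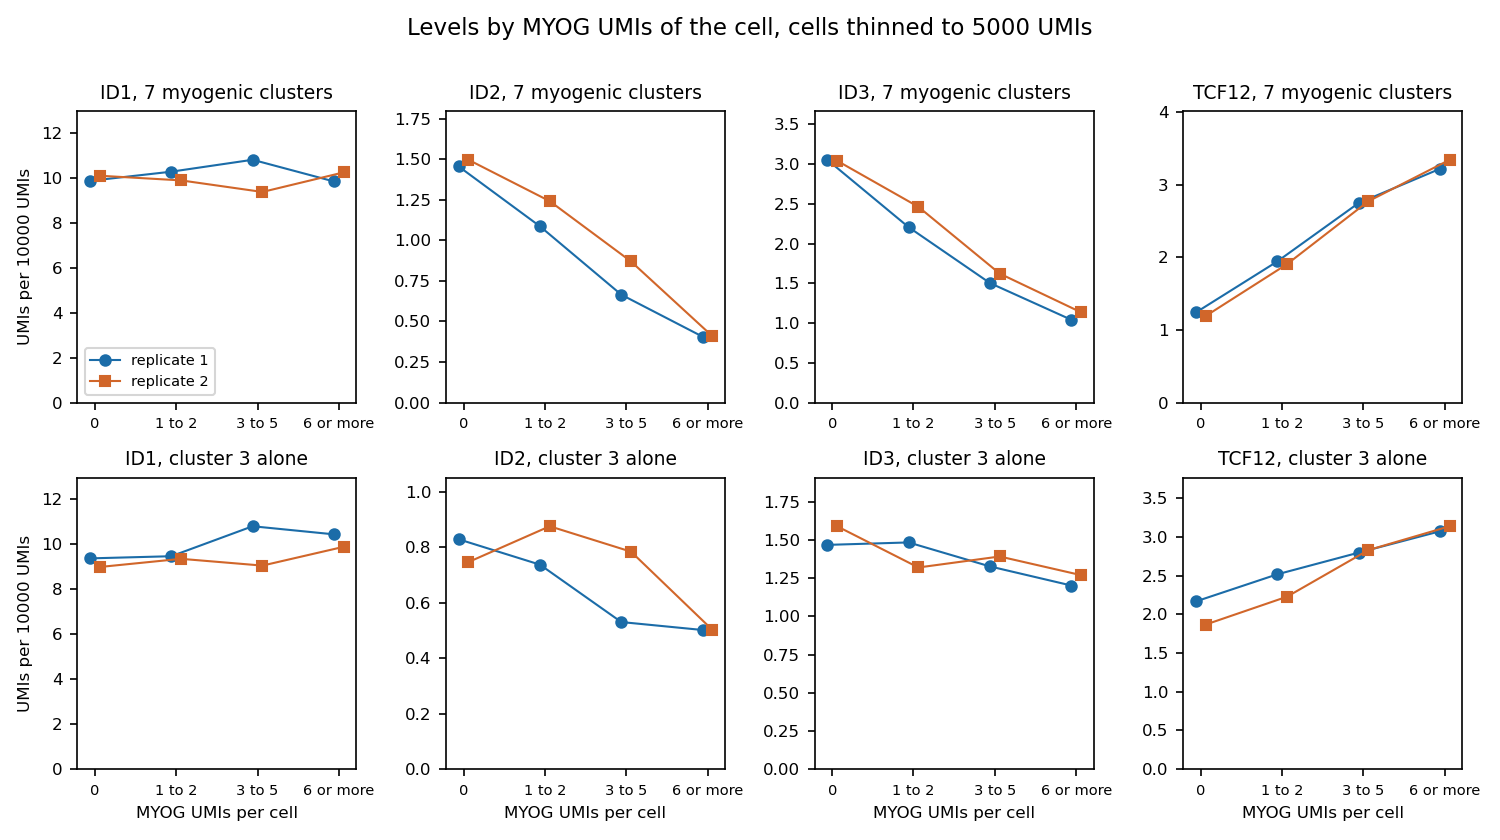
Level of ID1, ID2, ID3 and TCF12 in UMIs per 10000 UMIs (vertical axes, starting at 0) by the number of MYOG UMIs in the cell (horizontal axes), in the 7 myogenic clusters (top) and in cluster 3 alone (bottom), from cells thinned to 5000 UMIs; circles are replicate 1 and squares replicate 2. In the upper panels ID2 and ID3 fall and TCF12 climbs at each class while ID1 stays near 10, and in cluster 3 ID2, ID3 and TCF12 differ between the first and the last class in the same directions at a smaller scale, while ID1 goes from 9.18 to 10.16.

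The share of cells with a UMI, taken after the same thinning, followed the levels of ID2, ID3 and TCF12 in clusters 8, 3 and 12. ID1 was found in 84.1% of cells in cluster 8 (95% exact binomial interval 81.9% to 86.1%) and in 92.8% in cluster 12 (90.5% to 94.7%), and its highest share was 96.1% in cluster 9. Its level was highest in cluster 11 instead, where the share was 94.67%. ID2 was found in 53.1% of cells in cluster 8 (50.3% to 55.9%), 25.3% in cluster 3 (23.4% to 27.3%) and 12.2% in cluster 12 (9.75% to 15.1%). ID3 went from 76.6% (74.2% to 79.0%) to 43.2% (41.1% to 45.4%) and 28.4% (24.9% to 32.1%) over the same clusters. The differences were therefore spread over many cells and not set by a few. TCF12 was found in 31.6% of cells in cluster 8 (29.0% to 34.3%), 68.2% in cluster 3 (66.2% to 70.3%) and 79.8% in cluster 12 (76.4% to 82.9%). TWIST1 was found in 15.7% of cells in cluster 9 (13.6% to 18.1%) and in 0.653% in cluster 12 (0.178% to 1.66%), and TWIST2 in 3.70% in cluster 9 (2.66% to 5.01%) and in 0 of 613 cells in cluster 12. A count of 0 there allows up to 0.489% of cells with a UMI at this depth (3 counts of 613), and does not limit the share of cells that hold the transcript. The intervals cover counting error only. No cluster is known to lack ID or E-protein transcripts, so a background share could not be measured for them.

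The 4 myogenic partners gave the frame for these values. MYOD1 was at 0.892 ± 0.0137 in cluster 8, then 5.18 ± 0.164 and 6.35 ± 0.244 in clusters 1 and 3, and 3.96 ± 0.187 in cluster 12. MYOG went over these clusters through 0.1075 ± 0.0114, 0.877 ± 0.103, 6.68 ± 0.107 and 18.6 ± 0.779. MYF5 was 1.57 ± 0.109, 1.55 ± 0.0720, 0.873 ± 0.113 and 0.574 ± 0.0778 over the same clusters. MYF6 was at 0.142 or below in all 4, and each of its steps was called. Their log2 fold changes were 0.59, -0.47 and 0.92 (adjusted p of 0.0205, 0.0184 and 0.00197). In the step to cluster 12, MYOD1 thus fell (log2 -0.58, adjusted p = 0.000274) while TCF12 rose. In cluster 9 each of the 4 was lower than in the myogenic clusters, from -2.56 for MYF6 to -3.42 for MYOG.

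Along the first route, genes that E-protein dimers are known to switch on in cell cycle exit and muscle moved with TCF12 and against ID2, ID3 and ID4. Of a list of 10, 6 of the 8 tested were higher in cluster 1 than in cluster 8 and 0 lower (median 2.09 against -0.00 for all genes, 17.2% of which were called higher), 8 of 9 were higher in cluster 3 than in cluster 1 (median 0.92, 21.1% of all genes higher), and 10 of 10 were higher in cluster 12 than in cluster 3 (median 1.69, 18.2% of all genes higher). The genes with the largest change in each step were CDKN1C, a cell cycle inhibitor (10.26 in cluster 1 and 0.857 in cluster 8, log2 3.62), the fusion gene MYMK (0.343 in cluster 3 and 0.0717 in cluster 1, log2 2.29) and the creatine kinase CKM (0.534 in cluster 12 and 0.00993 in cluster 3, log2 5.83). On the second route, 2 of the 7 tested were higher and 1 lower in cluster 5 against cluster 8 (median -0.09, 16.3% and 12.2% of all genes). In cluster 4 against cluster 5, where ID3 was higher too, 4 of 8 were higher and 0 lower (median 0.25, 9.16% and 7.28%). In cluster 2 against cluster 4, 6 of 8 were higher and 1 lower (median 1.26, 14.5% and 15.7%). All 10 genes of the list were lower in cluster 9 than in the myogenic clusters (median -3.18, 27.6% of all genes lower). These genes define the myogenic clusters, so the list is no independent evidence of a direction.

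Of 19 cofactors of E proteins and MYOD1, 8 of the 17 tested were higher and 1 lower in cluster 12 than in cluster 3 (median 0.14), where 18.2% of all genes were higher and 15.6% lower. MEF2C, a muscle transcription factor that works with MYOG, was 0.396 in cluster 12 and 0.0116 in cluster 3 (log2 5.18, adjusted p = 4.05e-07), and MEF2A was 3.30 and 1.80 (log2 0.97). In the earlier steps the list was mixed, with 5 higher and 4 lower of 15 in cluster 1 against cluster 8 (17.2% and 16.9% of all genes), among them SMARCD3, a chromatin remodelling subunit used by MYOD1, at 1.05 and 0.465 (log2 1.21). In cluster 9, 6 were higher and 9 lower of 18 (28.9% and 27.6% of all genes).

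The other helix-loop-helix factors, 20 in the list, had more members called lower than higher in each step of the first route. In cluster 3 against cluster 1, 8 of the 14 tested were lower and 0 higher (median -0.35 against 0.00 for all genes, 19.1% of which were lower), led by the NOTCH targets HEYL (0.142 against 0.492, log2 -1.75) and HEY1 (0.124 against 0.225, log2 -0.83). In cluster 12 against cluster 3, 6 were lower and 2 higher of 14 (15.6% and 18.2% of all genes), with HES1, another NOTCH target, at 0.645 against 1.71 (log2 -1.31) and MYC at 0.326 against 0.638 (log2 -0.87). In cluster 1 against cluster 8, 6 were lower and 3 higher of 14 (16.9% and 17.2% of all genes). EPAS1 was among the lower ones (0.0845 against 0.246, log2 -1.51) and HEYL among the higher ones (0.492 against 0.232, log2 1.12). In cluster 9 against the myogenic clusters, 4 were higher and 7 lower of 17 (28.9% and 27.6% of all genes), with BHLHE41 at 0.161 against 0.0268 (log2 2.57) and HEYL at 0.0690 against 0.342 (log2 -2.32).

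Genes of the bone morphogenetic protein and SMAD pathway, through which ID genes are classically induced, had called members in both directions in each step of the first route. Of 33 genes, 3 were higher and 9 lower of the 25 tested in cluster 1 against cluster 8 (median -0.23), where 17.2% of all genes were higher and 16.9% lower. In cluster 3 against cluster 1, 3 were higher and 6 lower of 24 (median -0.17, with 21.1% and 19.1% of all genes), and in cluster 12 against cluster 3, 5 were higher and 4 lower of 23 (median 0.12, with 18.2% and 15.6% of all genes). The ligand gene BMP4 was higher in cluster 1 (0.193) than in cluster 8 (0.0947), by 1.06 on the log2 scale. FST was lower in that step (0.173 against 0.363, log2 -1.03). The antagonist gene CHRD was higher in cluster 3 than in cluster 1 (0.124 against 0.0741, log2 0.78) and in cluster 12 than in cluster 3 (0.236 against 0.124, log2 1.03). FSTL1 was lower in both of these steps (log2 -0.55 and -0.90), and the receptor gene ACVR1 was lower in cluster 3 than in cluster 1 (0.145 against 0.230, log2 -0.64). In cluster 2 against cluster 4, 12 of 25 were lower and 1 higher (15.7% of all genes lower and 14.5% higher). Cluster 9 held the largest differences, with the co-receptor gene ENG at 0.824 against 0.0425 (log2 4.25) and FST, which encodes the antagonist follistatin, at 4.58 against 0.247 (log2 4.19), and 12 of 27 were higher and 10 lower (28.9% and 27.6% of all genes).

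Within clusters, where each library's thinned cells were taken on their own, the largest correlations between members were those among ID1, ID2 and ID3. The values of the 2 libraries were averaged in each of the 10 deeper clusters, and medians and ranges are over these averages. Pearson's r between ID1 and ID2 had a median of 0.201 (range 0.0479 to 0.290), with 0.0279 to 0.322 in single libraries. That between ID1 and ID3 had a median of 0.193 (0.123 to 0.280), and that between ID2 and ID3 one of 0.128 (0.0749 to 0.156). With MYOD1, which is not a member, ID1 had a median r of similar size, 0.1445 (-0.0326 to 0.197). Cells of a library share its preparation and these counts are sparse, so values of this size are given as a description. Across the 10 deeper clusters, r was taken on log2(level + 0.05) of the mean levels. It was 0.948 between ID2 and ID3, and 0.929 between ID2 and ID4, but 0.0941 between ID1 and ID2 and 0.0420 between ID1 and ID3. ID1 thus went weakly with ID2 and ID3 from cell to cell, though not with them alone, and did not go with them from cluster to cluster. TCF12 had an r of -0.875 with ID2 and -0.945 with ID4, and TWIST1 one of 0.873 with TWIST2. Within clusters, the median r of TWIST1 and TWIST2 was -0.0078. The level of TWIST2 was 0.0626 in cluster 9 and 0.01 or below in the other deeper clusters. These 10 points come from the same 2 libraries and include clusters that were ordered by the study along 1 lineage.

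The genes whose levels were most like those of a member over the 10 deeper clusters, among 9067 genes with at least 1000 UMIs, were CLTA (r = 0.992), GNB4 (0.988) and NAGLU (0.986) for ID2, and C19H17orf49 (0.9798), PACRGL (0.976) and TBL1X (0.975) for ID3. For TCF12 they were TNNC2 (0.990), the troponin C gene of fast muscle, RNF10 (0.989) and FBXO3 (0.989). For TWIST1 they were SERTAD2 (0.993), MMP19 (0.989) and VEGFA (0.987). The closest to ID1 after an unnamed gene were METTL2A (0.958) and USP40 (0.926), and for ID4 they were SRGAP2 (0.986), ANKRD27 (0.9860) and CBX6 (0.9858). Over all 15 clusters, the 3 most alike genes were others for each of these members, so the names depend on the clusters used. For ID2 they were SQOR (0.9501), ARPC5 (0.9385) and GPX7 (0.9352), and for TCF12 ALAS1 (0.9515), CAP2 (0.9454) and SNX4 (0.9213). For TWIST1 they were CD99 (0.9576), BASP1 (0.9515) and RBPMS (0.9362). In this setting ID2 was the third most like ID3 (0.901), after TAGLN2 (0.928) and SQOR (0.9035).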

How the data were processed

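Single-cell RNA was measured with 10x Genomics 3' v3 chemistry in 2 libraries of the same cells. The authors aligned reads to ARS-UCD1.2, counted UMIs and joined both libraries in Cell Ranger 3.0.2, and deposited whole UMI counts for 21867 genes in 19096 cells. A second deposited table gives cluster averages, which are scaled UMI counts, beside the authors' own log2 fold changes and p-values, which were not used. Which cluster a cell belonged to was worked out from these averages in 30 rounds, and the resulting sums differed from the deposited ones for 0 of 252240 pairs of gene and cluster. Total UMIs per library were 145631299 and 137818568.

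UMI counts were summed per library and cluster and tested as 2 sums against 2 with edgeR 4.0.16 in R 4.3.3 (quasi-likelihood test, TMM, filterByExpr, Benjamini-Hochberg, threshold 0.05). On simulated counts with 200 genes changed 3-fold, 89.0% to 95.0% were recovered over the 7 comparisons. A 3-fold change is larger than nearly all the member differences, so this does not give the recovery of smaller ones. The simulated sums were drawn independently of each other, unlike the real ones, and with the same mean dispersion (spread beyond counting error) for all genes. Each library contributes a sum to either side of a comparison, which pairs the sums by library number. Over genes with at least 20 UMIs the deviations of same-numbered sums correlated at 0.396 to 0.621. The block was an alternative, as the study used none.

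The 10 genes, the lists and the tests were chosen with earlier results of these data known. Genes of the lists are named only where they were among the 3 largest called changes of a list in a comparison at 0.1 UMI per 10000 or more on either side. Not all genes that met this rule are named. The 4 myogenic partners are always given. Most alike genes are the 3 with the highest Pearson r of log2(level + 0.05), over the 15 and the 10 deeper clusters, among genes with 1000 UMIs or more. Alternatives were DESeq2 1.42.0, no filter, library totals, the block, doublets out, cells under 2000 UMIs out, each library left out, and clusters from a random 0.5 of the UMIs (Leiden, 10 principal components, 30 neighbours, resolution 1.5; 71.6% of cells kept their cluster) with levels from the rest. The automatic thresholds of Scrublet marked 6 cells, so the 8% highest scores of each library were treated as doublets (753 and 642 cells), a choice made after this was seen, and doublets were kept in the reported values.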

Additional observations from a re-analysis of the deposited data

How the results depend on the processing

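Of 463 values of member log2 fold changes under alternatives, 421 kept direction and side of the threshold, 16 lost their call, 17 gained one and 9 changed sign. Values with a library left out are not in this count. None of the 43 called differences changed sign. The changes of sign were in differences that had not been called: ID1 in cluster 3 against cluster 1 (-0.0155 with library totals, -0.0831 with the divided counts), TCF4 in cluster 12 against cluster 3 (0.0110 with DESeq2, 0.127 with the divided counts), TCF12 in cluster 4 against cluster 5 (-0.18 with the divided counts), ID1 in cluster 2 against cluster 4 (-0.0884 with the divided counts) and ID3 in cluster 9 against the myogenic clusters (0.0203 with library totals, 0.0007 without doublets, 0.0004 with the divided counts). Leaving out cells under 2000 UMIs changed none of these fits. This was settled in advance, since almost no cell of the compared clusters was that shallow (623 of 627 cells of cluster 12 had 3000 UMIs or more). These repeats are among the 421 values above. Single libraries also gave the other sign for some differences that had not been called. Examples are TCF3 in cluster 12 against cluster 3 (0.003 in replicate 2) and TWIST2 in cluster 4 against cluster 5 (0.21 in replicate 1).

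The number of members called in cluster 4 against cluster 5 was 3, and became 7 with the library as a replicate block, 5 without doublets and 5 with the divided counts, while in the other 6 comparisons it stayed within 1.5 times. The block changed no other call than those printed above. Among all genes, calls in cluster 4 against cluster 5 numbered 1859, against 3979 with the block and 1019 with DESeq2, and in cluster 2 against cluster 4 3497 against 5448 and 2150. DESeq2 called 2398 genes (edgeR 3812) in cluster 1 against cluster 8, 2860 (edgeR 4562) in cluster 3 against cluster 1, 2268 (edgeR 3650) in cluster 12 against cluster 3 and 1706 (edgeR 3120) in cluster 5 against cluster 8, and the divided counts gave 2649 in cluster 3 against cluster 1.

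The log2 ratio of cells with 6 or more MYOG UMIs to cells with 0 moved with thinning to 3000 UMIs for ID2 (-2.08 for -1.86) and ID3 (-1.92 for -1.49) in the myogenic clusters and for ID3 (-0.68 for -0.31) and ID1 (0.0187 for 0.147) in cluster 3. The cut of 6 was kept, which is stricter at 3000 UMIs, so the classes are not alike. The highest class then held 566 cells for 1006 in the myogenic clusters and 228 for 474 in cluster 3. Without doublets it was -1.91 for ID2 and 0.0270 for ID1 in the myogenic clusters, where ID1 was -0.00233 at 3000 UMIs and ran from -0.00399 to 0.0207 with 1 library left out. Depth limits ID4, TWIST1 and TWIST2 most, and levels in clusters 13, 14 and 15 rest on few UMIs.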
